A study of Mus musculus with 16 samples.

Results

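The partners of Mettl14 in the m6A writer complex were followed through newly made RNA of Mettl14 Control and Mettl14 conditional knockout mouse embryonic stem cells. They are 6 genes, Mettl3, Wtap, Virma, Zc3h13, Cbll1 and Rbm15, picked by their Ensembl identifiers out of 54446 mouse identifiers, and all 6 were present in every library. The genotypes compared were CKO (conditional knockout of Mettl14) and Control, both in C57BL/6 embryonic stem cells grown with 15% serum, LIF at 1000 U/ml, CHIR99021 at 3 µM and PD0325901 at 1 µM. At 48 h after seeding, the cells took up 5-ethynyl uridine (EU), a uridine analogue that enters RNA as it is made, at 0.5 mM for 10, 20, 30 or 60 min. Labelled RNA was captured by click chemistry, ERCC spike-in RNA was added after capture, and stranded total RNA libraries were sequenced. There were 8 groups of 2 libraries, hence 8 CKO and 8 Control libraries. The Cre driver, its induction and the number of clones behind each genotype are not stated in the labels. The protocol speaks of 8 plates, and nothing ties the 2 libraries of a group to different cultures. P-values here therefore reflect library-to-library spread that may be technical.

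N6-methyladenosine (m6A) is a modified base of messenger RNA, placed by a writer complex in the nucleus while RNA is being made. METTL3 is the subunit that transfers the methyl group, and METTL14 pairs with it to form the catalytic core and helps bind the RNA. A regulatory module joins this core: WTAP tethers it in nuclear speckles, VIRMA is a large scaffold, ZC3H13 holds the module in the nucleus, CBLL1 (HAKAI) is a RING finger protein and RBM15 binds RNA and brings the complex to its sites. In mouse embryonic stem cells, m6A is known for shortening the life of transcripts that maintain the naive state.

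In the mm10 build, Mettl3 (ENSMUSG00000022160) lies on the minus strand of chr14:52294841-52308741 and Zc3h13 (ENSMUSG00000022000) on the plus strand of the same chromosome at chr14:75284306-75344433. Wtap (ENSMUSG00000060475) lies at chr17:12966799-12992543 and Cbll1 (ENSMUSG00000020659) at chr12:31484829-31500676, both on the minus strand. Rbm15 (ENSMUSG00000048109) lies on the minus strand of chr3:107305511-107334460, and Virma (ENSMUSG00000040720) spans chr4:11485958-11551143. Mettl3 shares 669 bp with Tox4 on the opposite strand, Rbm15 shares 6605 bp with Slc16a4 on the opposite strand, Cbll1 shares 1057 bp with the long non-coding gene Gm40362, and Zc3h13 contains the 370 bp pseudogene Gm46470. No source used here states whether strand was used in counting, or which features were counted, so reads from these stretches cannot be assigned to one of the genes with certainty. Levels are compared below between libraries for a gene and not between genes, since no counted length is known.

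The promoters of Mettl3 and Zc3h13 are shown because these were the 2 members whose captured RNA differed between the genotypes at 10 min of EU. Each sequence is the GRCm38.p6 (mm10) RefSeq window of 250 bases before and 50 bases after an annotated start, and capitals mark the motif CCGGAAG, a core bound by ETS factors.
Mettl3 promoter, chr14:52305075-52305374, minus strand: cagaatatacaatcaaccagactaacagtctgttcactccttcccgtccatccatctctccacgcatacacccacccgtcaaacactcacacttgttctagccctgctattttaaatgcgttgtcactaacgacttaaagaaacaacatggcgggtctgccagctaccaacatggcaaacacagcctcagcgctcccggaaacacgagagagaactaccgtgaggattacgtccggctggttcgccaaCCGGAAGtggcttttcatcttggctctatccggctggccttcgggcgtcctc
Zc3h13 promoter, chr14:75284116-75284415, plus strand: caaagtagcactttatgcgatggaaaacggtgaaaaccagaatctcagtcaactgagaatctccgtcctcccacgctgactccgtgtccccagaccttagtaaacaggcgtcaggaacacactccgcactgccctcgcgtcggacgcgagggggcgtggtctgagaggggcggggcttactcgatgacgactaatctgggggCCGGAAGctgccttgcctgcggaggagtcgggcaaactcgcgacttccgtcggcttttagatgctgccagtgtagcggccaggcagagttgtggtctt
The motif was chosen after these sequences had been read. On either strand it stood in 3 of the 5 members with a promoter entry (Mettl3, Zc3h13 and Cbll1) and in 8.86% of 32851 mouse promoter entries. TATAAA stood in 0 of the 5 members and in 13.6% of all entries. GGGCGG stood in 4 of the 5 members and in 35.7% of all entries. CCAAT stood in 2 of the 5 members and in 37.4% of all entries. Both strands were searched for each motif, and matches of different motifs may overlap. For Wtap, with 3 entries, and Zc3h13, with 2, only the first entry was searched, whereas the percentages count every entry. The matches describe the letters of these windows, and binding was not measured.

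Counts were scaled to the library's mouse total with TMM factors (TMM-scaled CPM), and differences between the genotypes were tested with edgeR's quasi-likelihood F-test, with Benjamini-Hochberg adjustment over the 27488 identifiers that passed its filter on low counts. All 6 members passed the filter, with 172 to 45312 counts of a member in a library. The CKO libraries labelled for 30 min stood apart, with 5109162 and 5188643 mouse counts against 11902184 to 28502750 in the other 14, and with 30583 and 31826 identifiers detected against 21173 to 26857. Their log2 CPM correlated at 0.701 over identifiers, against 0.951 to 0.995 in the other 7 groups. Differences over all EU times are therefore also given from the 12 libraries at 10, 20 and 60 min, of which 20204 identifiers passed the filter. Mettl14 itself and markers of embryonic stem cells were not analysed here, because the tables used here do not annotate their identifiers.

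Mettl3, the catalytic subunit, was very uneven across the libraries and did not track the genotype. In CKO cells its level was 75.5 and 71.0 TMM-scaled CPM at 10 min of EU, 83.5 and 80.0 at 20 min, 6935 and 7236 at 30 min, and 69.6 and 65.8 at 60 min. In Control cells it was 455 and 438 at 10 min, 101 and 114 at 20 min, 381 and 399 at 30 min, and 60.3 and 66.2 at 60 min. Both replicates of CKO 30 min, Control 10 min and Control 30 min were thus high, and the other 10 libraries lay between 60.3 and 114 around a median of 73.3. Relative to that median, the mean was 96.7-fold in CKO 30 min, 6.10-fold in Control 10 min and 5.32-fold in Control 30 min. In descending order the group means were 7086 (CKO 30 min), 447 (Control 10 min), 390 (Control 30 min), 108 (Control 20 min), 81.7 (CKO 20 min), 73.3 (CKO 10 min), 67.7 (CKO 60 min) and 63.3 (Control 60 min). Ranges overlapped only for CKO 60 min and Control 60 min among neighbours in that order.

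**Figure D1:**
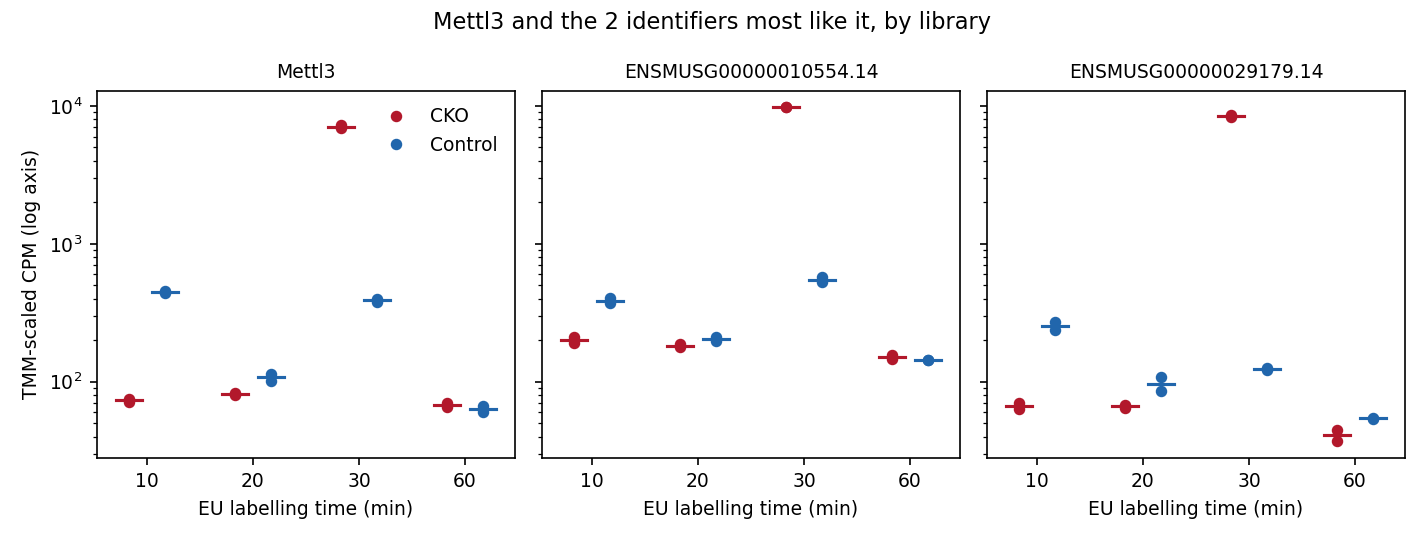
Mettl3 level in each library by EU time, as TMM-scaled CPM on a log axis, with CKO in red left of Control in blue and a bar at each group mean. The 2 CKO 30 min libraries lie at 6935 and 7236 CPM, and the Control libraries at 10 and 30 min lie between 381 and 455 CPM, above the other 10 libraries.

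The Mettl3 difference changed sign with EU time. It was lower in CKO cells at 10 min, by a log2 fold change of -2.61 (SE 0.08, edgeR adjusted p = 3.70e-18), and at 20 min, by -0.40 (SE 0.07, edgeR adjusted p = 0.00375). The direction was opposite at 30 min, where CKO cells were higher with a log2 fold change of 4.18 (SE 0.08, edgeR adjusted p = 2.48e-23), and at 60 min the value was 0.10 (SE 0.07, edgeR adjusted p = 0.867). The 20 min call was lost when CKO replicate 2 was left out (-0.36, edgeR adjusted p = 0.106) or Control replicate 2 (-0.30, edgeR adjusted p = 0.308). Over all EU times the log2 fold change was 0.09 (SE 0.82, edgeR adjusted p = 0.958). Across the 12 libraries at the other times it was -0.95 (95% interval -1.95 to 0.06, edgeR adjusted p = 0.217), an average of values that ran from -2.65 at 10 min to 0.10 at 60 min.

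A few other identifiers shared the Mettl3 pattern. Among 9463 identifiers with a mean of at least 10 CPM, the closest by Pearson correlation of log2 level were ENSMUSG00000010554 and ENSMUSG00000029179, with 0.980 and 0.971 over 16 libraries and 0.962 and 0.958 over the 12 libraries without 30 min. These libraries share depth and scaling, so the correlations are descriptions. ENSMUSG00000010554 had 9745 and 9787 TMM-scaled CPM in the CKO 30 min libraries, and ENSMUSG00000029179 had 8374 and 8551. Like Mettl3, both stood far above their other libraries in that group. Relative to the median of the same other 10 libraries, their group means were 53.4-fold and 132-fold in CKO 30 min, 2.12-fold and 3.96-fold in Control 10 min, and 3.01-fold and 1.92-fold in Control 30 min. Together with Mettl3 they held 3.03% and 3.13% of the mouse counts in the CKO 30 min libraries, against 0.0234% to 0.115% in the other 14. What these libraries have in common was not tested. Counts per gene do not show where in the gene the reads lie, so it was not tested either whether the very high Mettl3 counts are RNA newly made from its locus, and the folds above are folds in counts.

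With TMM scaling, Zc3h13, the nuclear anchor of the regulatory module, differed between the genotypes in opposite directions early and late in labelling. Per ERCC count, a scale described below, it was higher in CKO cells at 10 min (1.65-fold), 20 min (1.07-fold) and 60 min (1.37-fold). In CKO cells its level was 205 and 220 TMM-scaled CPM at 10 min, 296 and 304 at 20 min, 307 and 282 at 30 min, and 399.7 and 387 at 60 min. In Control cells it was 316 and 327 at 10 min, 364 and 373 at 20 min, 319 and 296 at 30 min, and 283 and 308 at 60 min. The CKO libraries were the lower ones at 10 and 20 min and the higher ones at 60 min without overlap, and the ranges overlapped at 30 min. The 30 min log2 fold change was -0.06 with TMM scaling (edgeR adjusted p = 0.546), but 0.22 with library totals (edgeR adjusted p = 0.0287), 0.22 with DESeq2 size factors in edgeR (adjusted p = 0.0361) and 0.22 in DESeq2 (adjusted p = 0.00513), called higher in CKO cells in all 3.

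The log2 fold change of Zc3h13 was -0.59 at 10 min (SE 0.08, edgeR adjusted p = 1.29e-05), which is 1.51-fold lower in CKO cells. It was -0.30 at 20 min (SE 0.08, edgeR adjusted p = 0.0919), with an adjusted p of 0.0382 in edgeR without the 30 min libraries. The order of the genotypes was then reversed. It was 0.41 at 60 min (SE 0.08, edgeR adjusted p = 0.00377), which is 1.33-fold higher in CKO cells. The change of the genotype difference with EU time passed the test with all libraries (edgeR adjusted p = 2.76e-06) and without those at 30 min (edgeR adjusted p = 6.44e-05), and did not pass with ERCC totals as library sizes (edgeR adjusted p = 0.149). The early and late differences offset each other in the average. Over all EU times, the log2 fold change was -0.13 (SE 0.11, edgeR adjusted p = 0.454). The 60 min call was lost without CKO replicate 1 or either Control replicate at that time, with log2 fold changes between 0.31 and 0.43. The sign at 10 min turned under scaling to ERCC counts, to a log2 fold change of 0.73 (edgeR adjusted p = 0.0110).

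A ratio of Zc3h13 to Wtap within each library does not depend on any scaling. Per 100 Wtap counts there were 87.2 and 95.9 Zc3h13 counts in CKO cells at 10 min, against 141 and 144 in Control cells. At 20 min there were 105 and 115 in CKO cells, against 133 and 145 in Control cells. At 30 min there were 241 and 241 in CKO cells, against 133 and 116 in Control cells, and at 60 min 160 and 146 in CKO cells, against 112 and 120 in Control cells. Relative to Wtap, Zc3h13 was thus lower in CKO cells at the shorter labelling times and higher at the longer ones, with no overlap at any time. The ratio moves with either gene. With TMM scaling, the 30 min log2 fold change was -1.02 for Wtap and -0.06 for Zc3h13.

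Wtap, the nuclear speckle tether, was nearly level apart from 1 group. In CKO cells it had 236 and 229.7 TMM-scaled CPM at 10 min, 283 and 263 at 20 min, 127 and 117 at 30 min, and 250.1 and 266 at 60 min. In Control cells it had 224 and 227 at 10 min, 273 and 258 at 20 min, 239.6 and 254 at 30 min, and 251 and 256 at 60 min. Outside CKO 30 min, the highest of the 14 libraries was 1.26 times the lowest. At 30 min Wtap was lower in CKO cells, with a log2 fold change of -1.02 (SE 0.09, edgeR adjusted p = 1.61e-09). No difference of that size was seen at the other times. Over 10, 20 and 60 min the log2 fold change was 0.02 (95% interval -0.10 to 0.14).

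Virma, the scaffold, was also called lower in CKO cells at 30 min. It had 53.9 and 54.6 TMM-scaled CPM in CKO cells at 30 min, against 76.8 and 82.2 in Control cells, and 73.5 to 101 in the other 12 libraries. The 30 min log2 fold change was -0.55 (SE 0.13, edgeR adjusted p = 0.00135). It depended on the scaling, at -0.27 with library totals (edgeR adjusted p = 0.0897) and -0.27 in DESeq2 (adjusted p = 0.0587). Over 10, 20 and 60 min the value was -0.02 (95% interval -0.18 to 0.14).

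Cbll1, the RING finger subunit, had 27.4 and 31.1 TMM-scaled CPM in CKO cells at 30 min, against 53.4 and 53.9 in Control cells, a log2 fold change of -0.87 (SE 0.14, edgeR adjusted p = 2.67e-05). At 60 min it had 71.2 and 73.6 in CKO cells, against 90.7 and 84.5 in Control cells. The groups did not overlap at 60 min, but the log2 fold change of -0.27 did not pass (SE 0.13, edgeR adjusted p = 0.465). DESeq2 gave -0.32 (adjusted p = 0.0168). Over 10, 20 and 60 min together the value was -0.10 (95% interval -0.26 to 0.07, edgeR adjusted p = 0.499). At 10 and 20 min the genotypes overlapped, with 59.1 to 71.0 in CKO cells and 54.4 to 68.9 in Control cells.

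Rbm15, the RNA-binding subunit, had 73.2 and 69.0 TMM-scaled CPM in CKO cells at 30 min, against 158 and 148 in Control cells, a log2 fold change of -1.10 (SE 0.12, edgeR adjusted p = 6.87e-08). At 60 min it had 147 and 151 in CKO cells, against 174 and 162 in Control cells, with a log2 fold change of -0.18 (SE 0.11, edgeR adjusted p = 0.760). It had the lowest overall p of the 6 members, with a log2 fold change of -0.33 over all EU times (SE 0.13, edgeR adjusted p = 0.0904). DESeq2 gave -0.27 (adjusted p = 0.0484). Most of this difference came from 30 min. Over 10, 20 and 60 min the value was -0.09 (95% interval -0.25 to 0.06).

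**Figure D2:**
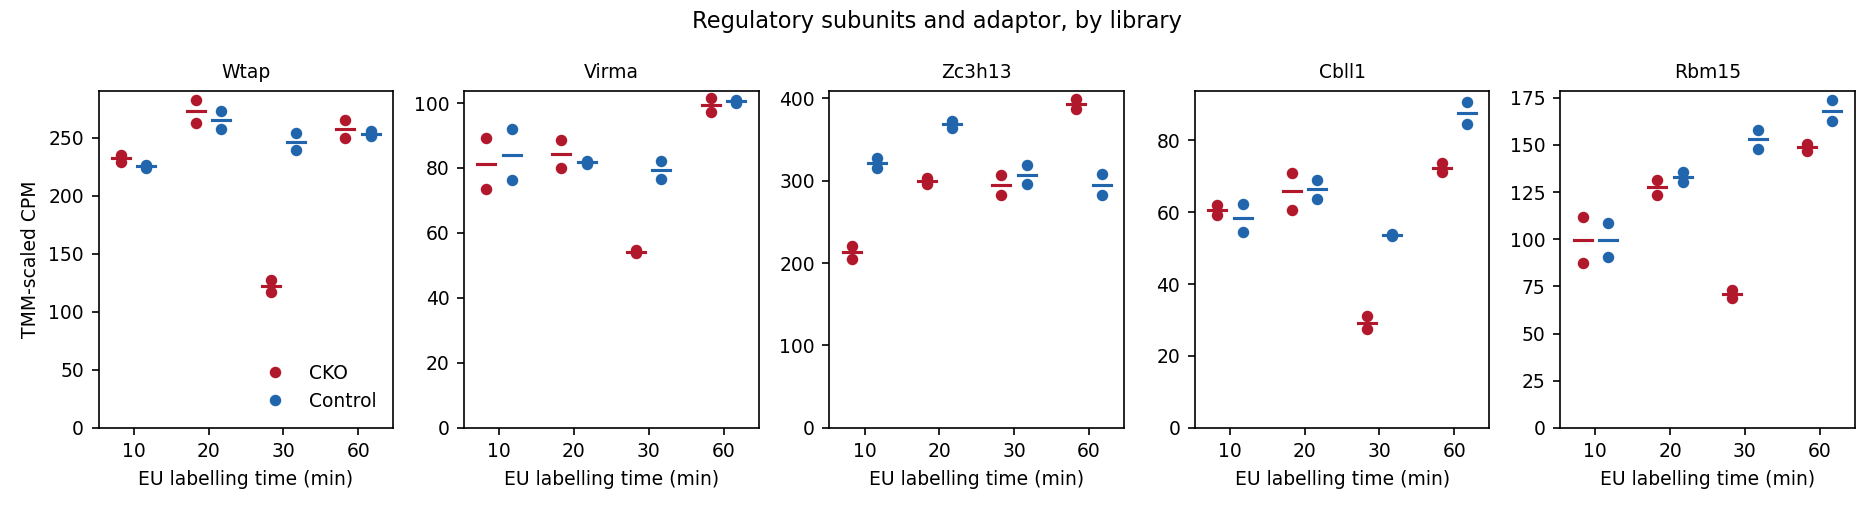
Level of each regulatory subunit in each library by EU time, as TMM-scaled CPM on axes from 0, with CKO in red left of Control in blue and a bar at each group mean. Zc3h13 is lower in CKO cells at 10 and 20 min and higher at 60 min, and Wtap, Virma, Cbll1 and Rbm15 separate most at 30 min.

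Counted over the 6 members, 0 were called over all EU times by edgeR, against 11.5% of all identifiers tested. At an unadjusted p under 0.05 there were 2, Cbll1 and Rbm15, and DESeq2 called 1, Rbm15. The share of all identifiers at that unadjusted p is not given here, and is at least the 11.5% called. No share is given for DESeq2 either, so these counts are not read against other identifiers. At 10 min 2 members were called, Mettl3 and Zc3h13, against 11.8% of identifiers, both lower in CKO cells, against 5.36% called lower. The 20 and 60 min comparisons each had a single call. At 20 min 1 was called, Mettl3, against 0.96%, and it was lower, against 0.255%. At 60 min 1 was called, Zc3h13, against 2.63%, and it was higher, against 1.79%. Among the 9464 identifiers with a mean of at least 10 CPM, the shares were larger, with 18.9% called over all EU times. In that set 28% were called at 10 min (12.4% lower), 2.75% at 20 min (0.74% lower) and 7.46% at 60 min (5.02% higher). In the fit without the 30 min libraries, 0 members were called over all EU times, against 12.6% of identifiers, with 0 at an unadjusted p under 0.05. The same fit called Mettl3 and Zc3h13 at 10 min (2 members, against 22.8%) and at 20 min (2 members, against 1.9%), and Zc3h13 at 60 min (1 member, against 4.93%). In these edgeR fits, Zc3h13 and Mettl3 were thus the members called at times other than 30 min. DESeq2 also called Cbll1 at 60 min, with a log2 fold change of -0.32 (adjusted p = 0.0168). The groups of CKO and Control libraries did not overlap for 3 of the 6 members at 10 min, for 2 at 20 min, for 5 at 30 min and for 3 at 60 min. For all identifiers tested these shares were 38.4%, 41.7%, 70.8% and 45.7%.

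At 30 min 5 members were called by edgeR, against 48.5% of identifiers. Mettl3 was higher in CKO cells, against 29.4% called higher, and Wtap, Virma, Cbll1 and Rbm15 were lower, against 19.1% called lower. The median log2 fold change at 30 min was -0.71 over the members and 0.61 over all identifiers tested. Among 9464 identifiers with a mean of at least 10 CPM, the abundance range of the members, the median was -0.45 and 50.4% were called lower. The share of the 30 min library differences in these 4 calls was not tested. With library totals the 30 min log2 fold changes were -0.73 for Wtap, -0.59 for Cbll1, -0.82 for Rbm15, 4.47 for Mettl3 and 0.22 for Zc3h13. The 5 members called were then not the same 5, since Zc3h13 passed and Virma did not.

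The genotype difference changed with EU time for 6 of the 6 members when all libraries were used, against 22.7% of identifiers. It did so for 4 with library totals or with DESeq2 size factors, where Virma and Cbll1 did not pass, and for 5 in DESeq2 or with no filter (all but Virma) and with ERCC totals (all but Zc3h13). No share of all identifiers is given for these alternatives. At the other 3 times the genotype difference changed for 2, Mettl3 and Zc3h13, against 5.58%. No share in the abundance range of the members is given for this test, so the counts are not read against identifiers of like abundance.

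**Figure D3:**
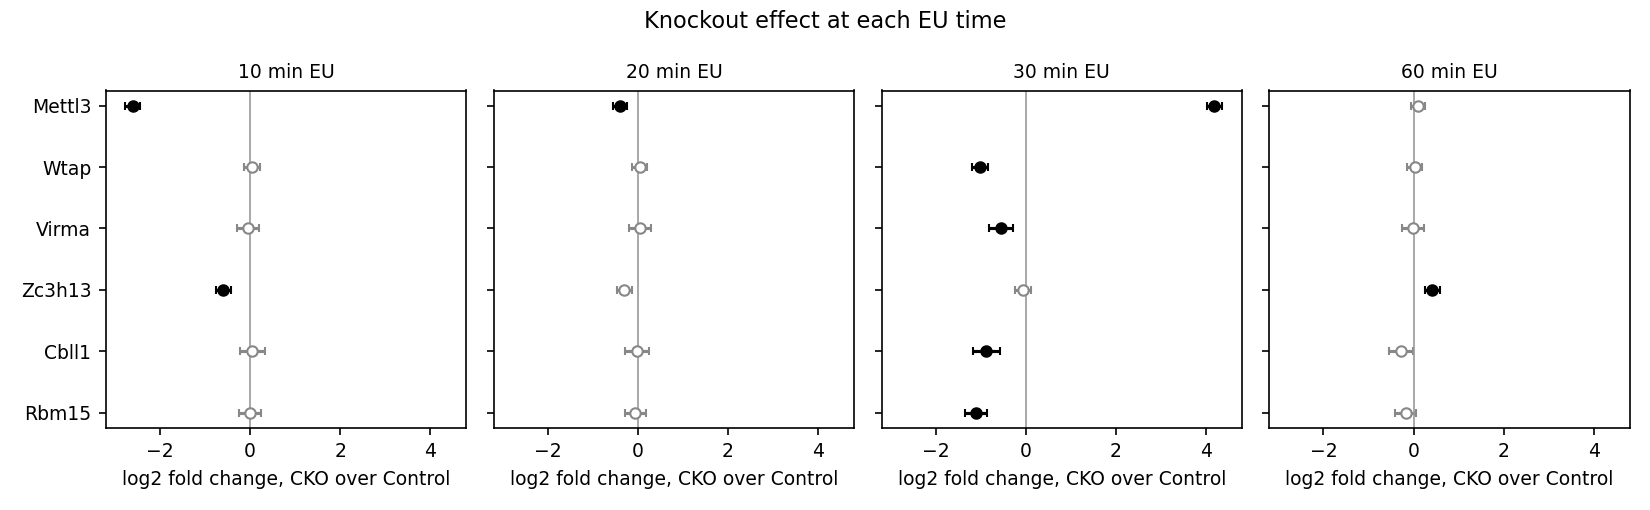
Log2 fold change of CKO over Control for each member at each EU time, with 95% intervals, filled where the edgeR adjusted p is under 0.05. Mettl3 runs from -2.61 at 10 min to 4.18 at 30 min, and Zc3h13 from -0.59 at 10 min to 0.41 at 60 min.

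Within a genotype, the share of each member in the captured RNA was compared between 60 and 10 min of EU. In CKO cells 2 members were called, against 15.2% of identifiers, and both were higher at 60 min, against 8.96% called higher. Zc3h13 had a log2 fold change of 0.89 (SE 0.08, edgeR adjusted p = 1.19e-08) and Rbm15 one of 0.58 (SE 0.12, edgeR adjusted p = 0.000582). In Control cells 3 were called, against 10.1% of identifiers. Rbm15 was higher at 60 min by a log2 fold change of 0.76 (SE 0.11, edgeR adjusted p = 3.63e-05) and Cbll1 by 0.59 (SE 0.13, edgeR adjusted p = 0.00296), against 6.88% called higher. Mettl3 was lower, with a log2 fold change of -2.82 (SE 0.08, edgeR adjusted p = 4.66e-19), against 3.21% called lower. Among the 9464 identifiers with a mean of at least 10 CPM, 38.1% were called in CKO cells, 23.4% as higher at 60 min. In Control cells 25.5% of that set were called, 18.7% as higher and 6.77% as lower.

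Rbm15 gained share over labelling time in both genotypes. In CKO cells it had 147 and 151 TMM-scaled CPM at 60 min, against 112 and 87.3 at 10 min. In Control cells it had 174 and 162 at 60 min, against 90.3 and 108 at 10 min. The Zc3h13 value in Control cells was -0.12 (edgeR adjusted p = 0.429) and the Cbll1 value in CKO cells 0.26 (edgeR adjusted p = 0.219). The Cbll1 call in Control cells was lost without Control 10 min replicate 1 (0.52, edgeR adjusted p = 0.0522) or Control 60 min replicate 1 (0.55, edgeR adjusted p = 0.0679).

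Levels were also set against the ERCC spike-in, which does not force the libraries to a common total. The spike-in entered after capture, so counts per 1000 ERCC counts also carry how many cells were collected, how much RNA was recovered and how well it was captured, whose part in the results was not tested. In bulk RNA, fewer cells that make a transcript and less of it per cell cannot be told apart. At 10 min Wtap had 6.56 and 7.47 counts per 1000 ERCC counts in CKO cells, against 2.63 and 2.81 in Control cells. Wtap reached 29.7 and 37.5 in CKO cells at 60 min, against 31.9 and 32.0 in Control cells. Relative to Control cells, Wtap in CKO cells was thus 2.58-fold at 10 min, 1.36-fold at 20 min and 0.457-fold at 30 min without overlap, and the genotypes overlapped at 60 min.

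The other regulatory subunits were also higher in CKO cells at 10 min, 2.41-fold for Virma, 2.59-fold for Cbll1, 2.49-fold for Rbm15 and 1.65-fold for Zc3h13. These 5 members were higher in CKO cells at 10 min without overlap, against 52.7% of all identifiers tested, and Mettl3 was lower without overlap, against 3.42%. ERCC counts made up 3.38% and 2.83% of all counts in the CKO 10 min libraries, against 7.97% and 7.54% in Control 10 min. The mouse total per ERCC count was thus also higher in CKO cells at 10 min. With TMM scaling the 10 min log2 fold changes were 0.05 for Wtap, -0.05 for Virma, -0.59 for Zc3h13, 0.05 for Cbll1 and 0.0007 for Rbm15. Mettl3 averaged 2.20 ± 0.14 counts per 1000 ERCC counts in CKO cells at 10 min and 5.38 ± 0.05 in Control cells (SD, n = 2 each). Its ranges overlapped at 60 min. At 20 min the 5 regulatory subunits were again higher without overlap, by 1.07-fold for Zc3h13 to 1.36-fold for Virma, against 48% of identifiers. The direction was opposite at 30 min for Wtap, Virma, Cbll1 and Rbm15, which were lower in CKO cells without overlap, at 0.430-fold for Rbm15 to 0.632-fold for Virma, against 26.9% of identifiers. Mettl3 was higher at 30 min without overlap, against 38.6%, and Zc3h13 overlapped. At 60 min Zc3h13 was higher without overlap, with 47.5 and 54.7 in CKO cells, against 35.9 and 38.4 in Control cells, and 23.4% of identifiers were higher in this way. Cbll1 was lower without overlap, with 8.46 and 10.4 in CKO cells, against 11.5 and 10.6 in Control cells, and 15.6% of identifiers were lower in this way.

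**Figure D4:**
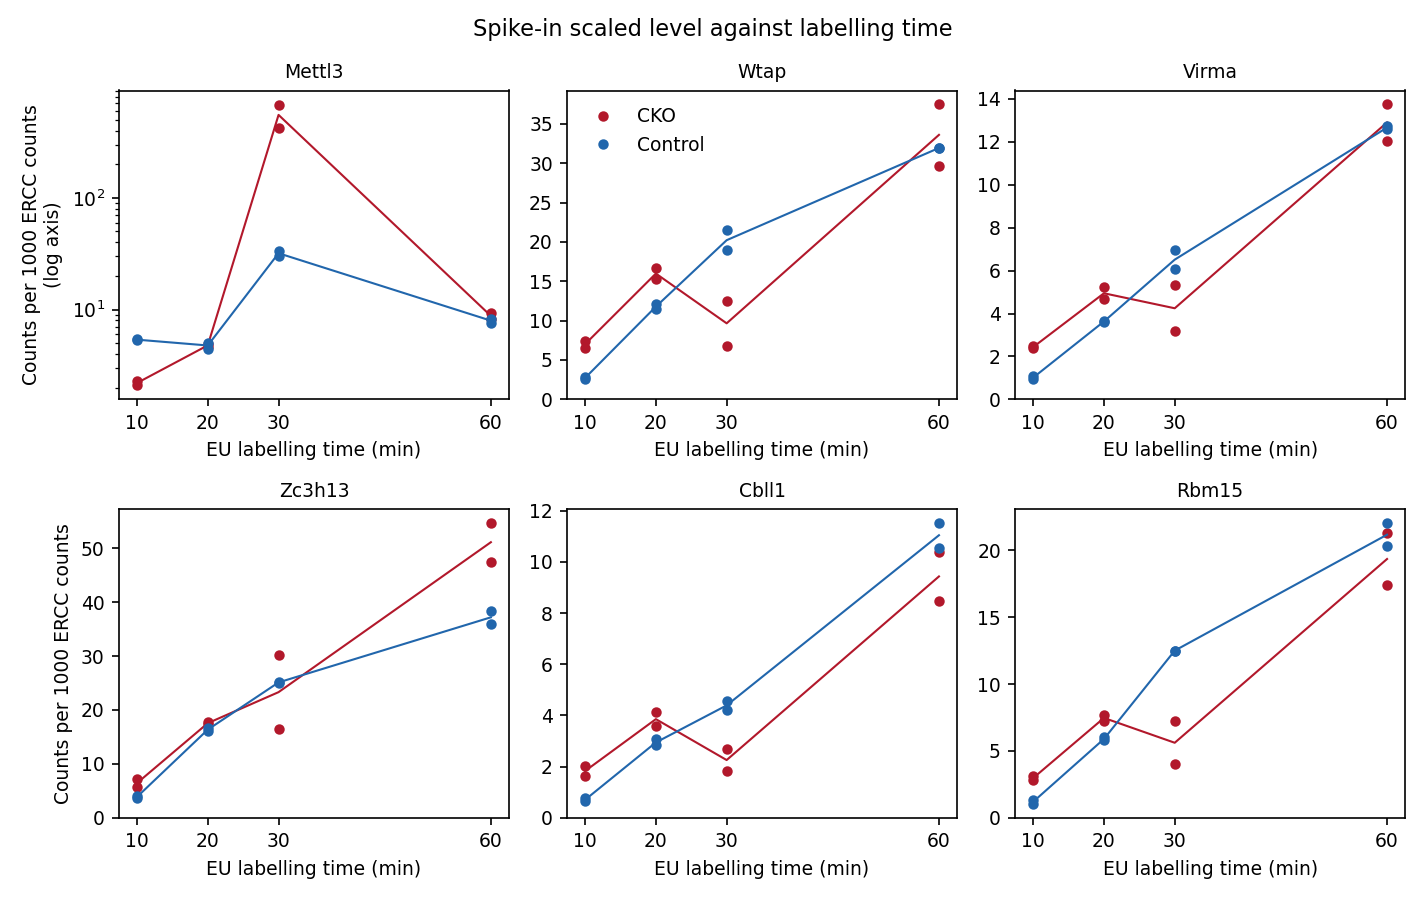
Counts of each member per 1000 ERCC counts in each library against EU time in minutes, with CKO in red and Control in blue (log axis for Mettl3). The 5 regulatory subunits are higher in CKO cells at 10 min, as is the mouse total per ERCC count, and at 60 min Wtap, Virma and Rbm15 overlap between the genotypes.

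Averaged over EU times, 0 of the 6 members differed in spike-in scaled level when genotype was permuted exactly within each EU time (two-sided exact permutation, 1296 assignments, smallest possible p = 0.00154), against 17% of identifiers, and 0 had an unadjusted p under 0.05. Zc3h13 had a log2 difference of 0.28 (exact permutation p = 0.0926, Benjamini-Hochberg 0.231). Over 10, 20 and 60 min its log2 difference was 0.43, at the smallest p that 216 assignments allow (exact permutation p = 0.00926, Benjamini-Hochberg 0.0405), against 22.9% of identifiers called. Without CKO 30 min replicate 2 it was 0.39 (exact permutation, Benjamini-Hochberg 0.0111). The medians without the 30 min libraries were 0.51 over the members and 0.64 over all identifiers, and with all libraries 0.23 over the members and 0.59 over all identifiers.

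The accumulation rate was the slope of counts per 1000 ERCC counts on EU minutes. Wtap gained 0.506 ± 0.107 counts per min in CKO cells and 0.562 ± 0.0542 in Control cells (SE, n = 8 libraries each). Rbm15 gained 0.319 ± 0.0502 in CKO cells and 0.394 ± 0.0312 in Control cells, and Virma 0.206 ± 0.0285 in CKO cells and 0.231 ± 0.00882 in Control cells. Cbll1 gained 0.148 ± 0.0293 in CKO cells and 0.205 ± 0.00759 in Control cells. Zc3h13 gained 0.878 ± 0.0889 in CKO cells and 0.624 ± 0.0760 in Control cells, and was the regulatory subunit whose estimate was higher in CKO cells. Mettl3 gained 0.122 ± 5.36 in CKO cells and 0.0596 ± 0.246 in Control cells, slopes smaller than their SEs. The 30 min libraries lie at the mean EU time, so leaving them out keeps every slope and changes only its SE (n = 6). The SEs were then 0.0149 in CKO and 0.0130 in Control cells for Mettl3, 0.0651 and 0.0335 for Wtap, 0.0127 and 0.00316 for Virma, 0.0540 and 0.0624 for Zc3h13, 0.0146 and 0.00691 for Cbll1, and 0.0288 and 0.0139 for Rbm15. Each slope of Mettl3 thus exceeded its SE once the 30 min libraries were left out.

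By exact permutation, 0 of the 6 rates differed after adjustment, against 0% of identifiers. The smallest unadjusted p, for Cbll1, was also the smallest the design gives for a slope (log2 ratio -0.47, exact permutation p = 0.00926, Benjamini-Hochberg 0.152). An identifier at that floor passes the adjustment only if many of the 21255 identifiers tested lie there too. The 0 calls therefore do not show that the rates were equal. With all libraries the log2 ratios were -0.15 for Wtap, -0.16 for Virma, -0.47 for Cbll1 and -0.31 for Rbm15. Without CKO 60 min replicate 2 they were -0.51 for Wtap, -0.37 for Virma, -0.81 for Cbll1 and -0.58 for Rbm15. Each was lower in CKO cells in both fits. Leaving out that library leaves 1 in its group and changes the weight of the other libraries in the slope. Calls from that fit are therefore not read as differences in rate, and what moved the ratios was not tested.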

How the data were processed

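RNA labelled with EU for 4 times was measured in 16 libraries of 2 genotypes, 2 a group. The deposited values are raw counts per Ensembl identifier, 54446 for mouse and 92 for ERCC species, made by the authors with Trimmomatic 0.38, HISAT2 2.1.0, HTSeq, CASAVA and the mm10 build, per the submitters' processing notes. No source used here states the annotation release, strand setting or feature type. Total and nascent polyA RNA are both named in the labels.

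The 6 members were found by identifier. They and the lists were chosen with earlier results of these data known. Symbols of the 6 come with the choice of members. Counts were filtered with edgeR's filter by group (27488 identifiers, 99.9% of mouse counts), scaled by TMM and tested in edgeR 4.0.16 (R 4.3.3, robust quasi-likelihood F-test, Benjamini-Hochberg over the 27488, threshold 0.05). The overall difference came from EU time plus genotype, and the others from 8 group means. SEs come from the F statistic and 95% intervals from the t distribution. Spike-in levels were log2 of (count + 0.5) over ERCC counts. Counts of 5109162 to 28502750 a library limit precision, and 2 libraries a group limit it more. Counts were simulated for 19052 genes from the Control means at the depth of each library, with the same dispersion (spread beyond sampling noise) for every gene. On these, the overall test recovered 83 of 100 genes changed 1.5-fold and 99 of 100 changed 2-fold, and the 10 min test 10 and 65 of 100. The spread of each member was not used, so these shares do not give the power for the 6 members.

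The rule for names admits the 6 members, Mettl14, other m6A genes and, for each member, the 2 identifiers with the highest Pearson correlation of log2 level over the 12 libraries at 10, 20 and 60 min. Only those of Mettl3 are printed, a choice made after their values were seen. Mettl14 and the other m6A genes were not looked up here, for want of symbols. Whether the identifiers printed beside Mettl3 are among those genes could therefore not be told here. Replicate numbers did not pair the libraries: over 28 pairs of groups, deviations of same-numbered libraries correlated at -0.06 to 0.05. Replicates differed by more than sampling noise in every group (chi-square per degree of freedom 3.59 to 23.5). Alternatives were DESeq2 1.42.0, other scalings and filters, the replicate block, fits without the 30 min libraries, and leaving out each library. Gene lists that need symbols were not analysed here.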

Additional observations from a re-analysis of the deposited data

Results flagged for a closer look

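The genotype difference of all 6 members changed with EU time in edgeR's interaction test over 27488 identifiers, in which 22.7% of identifiers also passed. With all libraries the adjusted p was 2.08e-23 for Mettl3, 3.33e-07 for Wtap, 0.0404 for Virma, 2.76e-06 for Zc3h13, 0.00255 for Cbll1 and 3.23e-05 for Rbm15. Without the 30 min libraries edgeR gave an adjusted p of 4.54e-09 for Mettl3 and 6.44e-05 for Zc3h13, and the other 4 members did not pass. The Virma value was the weakest: leaving out 1 library ended it in 14 of 16 fits, as did DESeq2 (adjusted p = 0.438), DESeq2 size factors in edgeR (adjusted p = 0.546), library totals (edgeR adjusted p = 0.577) and no filter on low counts (edgeR adjusted p = 0.125). Cbll1 did not pass with DESeq2 size factors in edgeR (adjusted p = 0.0516) or library totals (edgeR adjusted p = 0.0758), nor Zc3h13 with ERCC totals (edgeR adjusted p = 0.149). The low depth and the raised number of identifiers detected in the CKO 30 min libraries stand beside these values, and their part was not tested.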

How the results depend on the processing

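Of 1391 values of members under an alternative, 1314 stayed on their side of the threshold, 80 of them with a changed sign and no call in either fit, 40 lost a call, 28 gained one and 9 turned sign with a call. Over all EU times, DESeq2 and no filter on low counts each called 1 member, and leaving out single libraries gave 0 to 1 (Rbm15, without CKO 10 min replicate 1: -0.40, edgeR adjusted p = 0.0435). With ERCC totals as library sizes, 6 members were called at 10 min, 0 at 20 min, 0 at 60 min, and 6 between 60 and 10 min in each genotype. The same scaling turned Virma (1.27) and Zc3h13 (0.73) at 10 min, Mettl3 at 20 min (0.00405), Mettl3 between 60 and 10 min in CKO (1.99) and Control (0.56), and Zc3h13 between them in Control (3.26). At 20 min DESeq2, the fits without the 30 min or the CKO 30 min libraries and the 4 libraries alone each called 2 members, and leaving out single libraries gave 0 to 2. At 30 min Zc3h13 was 0.22 in DESeq2, 0.22 with DESeq2 size factors and 0.22 with library totals, called higher in each in place of a Virma call, and leaving out single libraries left 5 calls. At 60 min DESeq2 called 2, and leaving out single libraries gave 0 to 1. The genotype by EU time test called 2 without the 30 min or the CKO 30 min libraries and 5 to 6 without single libraries, with 4 under library totals or DESeq2 size factors and 5 in DESeq2, with no filter or with ERCC totals. Between 60 and 10 min the range without single libraries was 2 to 3 in CKO and 2 to 3 in Control. The spike-in scaled level had 1 call without the 30 min libraries, against 22.9% of identifiers. Slopes on log-log axes gave 1 call, Cbll1 (exact permutation, Benjamini-Hochberg 0.0460), with 923 of 27488 identifiers called. Its value of -0.71 is the CKO slope minus the Control slope on those axes, and not a log2 ratio of rates. Leaving out single libraries moved calls in both the spike-in scaled level and the rate. Leaving out a library gave a Mettl3 rate in 12 of 16 fits. The libraries share only a replicate number, and the replicate block left the calls at 0 over all EU times, 2 at 10 min, 1 at 20 min, 5 at 30 min and 1 at 60 min, 6 for genotype by EU time, and 2 in CKO and 3 in Control between 60 and 10 min. The causes of these changes were not tested. For most of these alternatives no share of all identifiers is given, so the counts show how calls moved and not how the members compare with other identifiers. In counts per 1000 ERCC counts, 52.7% of all identifiers tested were higher in CKO cells at 10 min without overlap. With 2 libraries a group, 65 of 100 simulated 2-fold changes were recovered at 10 min, with the same dispersion for every gene. The spread of each member was not used, so this share does not give the power for the members.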

Other observations

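Per 100 Wtap counts, Cbll1 had 28.5 and 27.7 counts in CKO cells at 60 min, against 36.1 and 33.0 in Control cells, and Rbm15 had 58.6 and 56.7 in CKO cells, against 69.0 and 63.5 in Control cells. At 10 min Cbll1 had 25.1 and 26.9 per 100 Wtap counts in CKO cells, against 24.3 and 27.5 in Control cells. Over the 12 libraries at 10, 20 and 60 min, Cbll1 and Rbm15 were the pair of members with the highest Pearson correlation of log2 level, at 0.87, and Mettl3 and Cbll1 the pair with the lowest, at -0.58. These libraries share depth and scaling, and the values are descriptions.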
